A study of Mus musculus with 5 samples.

Results

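The integrin and laminin gene family of the mouse bladder lining was examined here, as 25 integrin chains and 10 laminin chains taken by gene symbol from the count tables. All 35 were found among 24970 genes, and all 35 passed the filter on low counts that left 14779 genes for testing. Another 3 integrin or laminin rows of the tables were not on the list and were not analysed here. RNA was sequenced from urothelium dissected away from the muscle wall of 5 mice aged 10 weeks, with 1 library per animal. The wild-type group (WT 1 and WT 2) was of strain C57Bl/6. The Nicastrin knockout group (KO 1, KO 2 and KO 3) had the genotype Krt5CreERT2;Ncstnflox/flox, in which a Cre recombinase that needs an inducer is driven by the basal keratin gene Krt5 and removes a floxed part of Ncstn. Ncstn encodes a subunit of gamma-secretase, the protease that releases the active part of Notch receptors. Fibroblasts, vessels and leukocytes of the dissected layer do not express Krt5 as a rule, so they are not the intended target of this Cre. The labels name no Cre carrier or floxed control and no inducer schedule, so loss of Ncstn, the Cre, its induction and the strain cannot be told apart.

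Integrins are receptors made of an alpha and a beta chain that tie a cell to the matrix around it, and laminins are trimers of an alpha, a beta and a gamma chain that form the sheet of the basement membrane. In stratified epithelia, integrin alpha6 beta4 binds laminin-332, which contains the alpha3 and beta3 chains, and anchors the keratin network of basal cells through the hemidesmosome. Integrin alpha3 beta1 binds the same laminin at focal contacts. Integrins with the beta2 or beta7 chain belong to leukocytes, and laminins with the alpha2 or alpha4 chain belong mostly to muscle, vessels and stroma.

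The data compare these chains between the genotypes. Of 35 members, 11 fell (31.4%) and 4 rose (11.4%) in the knockouts, and 20 did not pass the test. Calls come from the quasi-likelihood test of edgeR, with p values adjusted by Benjamini and Hochberg over all tested genes at a threshold of 0.05. Across all 14779 tested genes, 10.0% fell and 9.64% rose, 19.7% in all. The median log2 fold change was -0.25 over the members and 0.01 over all tested genes. The laminin Lama1 (3.59-fold higher) and the integrin Itga4 (3.59-fold lower) had the smallest p values of the family. The chains Lama1, Itga4, Lama2 and Itga1 passed under each of the 14 alternative settings tried, and the other 11 calls were each lost in at least 1. CPM values of the genotypes did not overlap for 18 members (51.4%), 4 with the knockouts above and 14 below, against 51.0% of all tested genes, a share near the background. Leaving out WT 1 left 4 of 35 members called (4.79% of all genes), WT 2 left 8 (9.4%), KO 1 left 8 (12%) and KO 2 left 11 (13%), whereas 19 passed without KO 3 (27%).

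**Figure D1:**
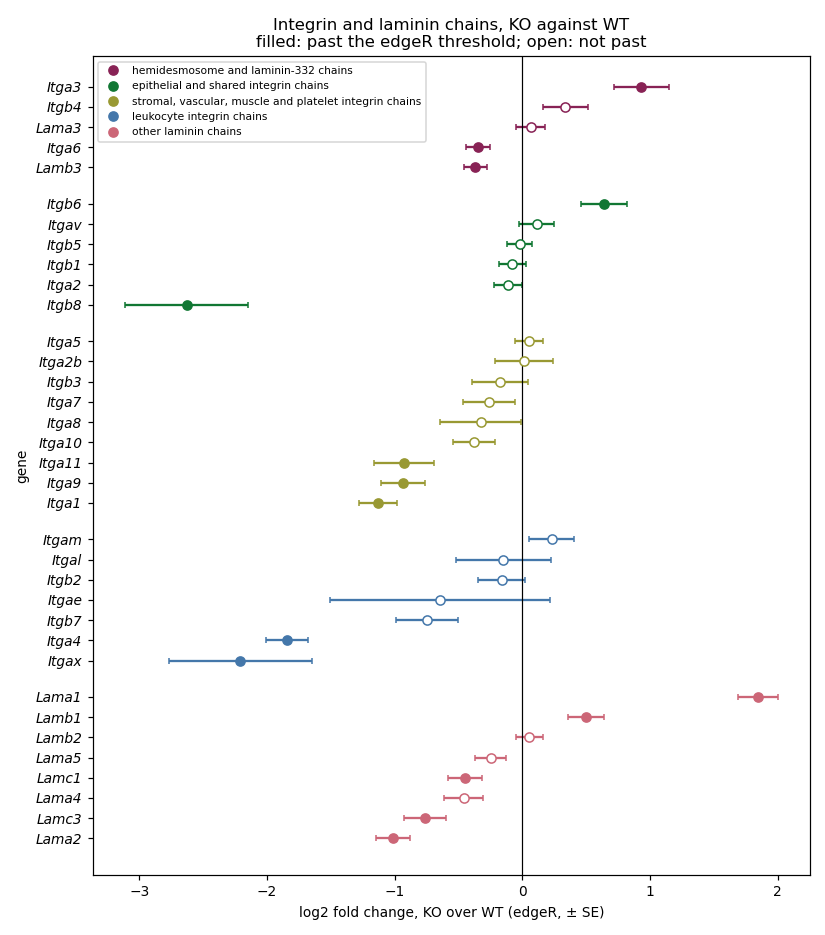
Log2 fold change of each of the 35 chains, knockout over wild type, on the horizontal axis, with genes in 5 role groups on the vertical axis. Points are edgeR estimates from 2 WT and 3 KO libraries, bars are 1 SE and filled points passed the threshold. Lama1 (1.84) lies farthest to the right and Itgb8 (-2.63) farthest to the left, with Itgax (-2.21) and Itga4 (-1.84) next.

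Gene counts per library ran from 12608836 to 27188499. The precursor ribosomal RNA Rn45s took 3.23% to 7.84% of them in the wild types and 0.608% to 1.53% in the knockouts. Tissue markers moved with genotype. All 10 fibroblast markers fell, with a summed level of 15489 to 17602 CPM in WT and 9201 to 10914 CPM in KO, and 4 of 10 endothelial markers fell (611 to 642 and 453 to 553 CPM). Of 13 urothelial markers 6 rose, and their sum was 12575 to 13970 CPM in WT and 17839 to 20008 CPM in KO. Of 14 leukocyte markers, 11 were tested, none fell and 1 rose (S100a8). The sum of the 14 was 111 and 111 CPM in WT and 69.9 to 123 CPM in KO. S100a8 supplied 9.67, 15.9 and 2.96 CPM of it in KO 1, KO 2 and KO 3, and which cells expressed it was not tested. Of 8 smooth muscle markers 1 fell (383 to 536 and 358 to 517 CPM), and of 4 platelet markers, 2 were tested and neither passed. Across all tested genes 10.0% fell and 9.64% rose. The shares of smooth muscle markers that fell (12.5%) and of leukocyte markers that rose (9.09%) were near these. Those of fibroblast (100%) and endothelial (40%) markers that fell and of urothelial markers that rose (46.2%) were larger. No marker in these lists was at 0 in every library. In dissected tissue, fewer cells of a type and less RNA per cell cannot be told apart, and the part of tissue make-up in the results below was not tested. Ncstn itself was at 144 and 130 CPM in WT and 114, 117 and 123 CPM in KO (log2 fold change -0.21, edgeR adjusted p = 0.133). Counts over the entire gene do not check a deletion of part of it.

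Sequences before the start sites are shown for 4 members that changed in different directions: Itga3 and Lamb1, which rose, and Itga4 and Lama2, which fell. Each is the 250 bases before the RefSeq start (GRCm38.p6), read 5′ to 3′ on the gene's strand. Capitals mark TGGGAA, the core of the motif bound by RBPJ, the DNA-binding partner of Notch, searched on both strands. The windows lie at chr11:95076715-95076964 (minus strand, Itga3), chr2:79255176-79255425 (plus, Itga4), chr10:27616943-27617192 (minus, Lama2) and chr12:31265043-31265292 (plus, Lamb1). RefSeq and GENCODE, the source of the gene limits printed here, differ in some starts: the Lama2 window lies inside the GENCODE gene, and those of Itga3 and Lamb1 run into it.
Itga3: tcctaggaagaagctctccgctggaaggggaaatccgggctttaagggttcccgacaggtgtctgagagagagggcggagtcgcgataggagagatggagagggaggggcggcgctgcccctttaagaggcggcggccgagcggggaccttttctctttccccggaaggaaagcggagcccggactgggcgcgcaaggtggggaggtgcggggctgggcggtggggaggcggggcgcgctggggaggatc
Itga4: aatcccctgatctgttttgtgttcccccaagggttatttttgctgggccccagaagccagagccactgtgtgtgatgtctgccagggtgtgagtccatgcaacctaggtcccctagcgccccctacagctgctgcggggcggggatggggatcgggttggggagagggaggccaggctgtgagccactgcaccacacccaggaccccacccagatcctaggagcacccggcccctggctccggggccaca
Lama2: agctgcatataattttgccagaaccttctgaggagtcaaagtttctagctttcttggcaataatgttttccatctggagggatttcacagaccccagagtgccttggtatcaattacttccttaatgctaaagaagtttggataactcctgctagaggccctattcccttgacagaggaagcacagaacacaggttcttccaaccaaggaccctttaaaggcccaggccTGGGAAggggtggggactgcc
Lamb1: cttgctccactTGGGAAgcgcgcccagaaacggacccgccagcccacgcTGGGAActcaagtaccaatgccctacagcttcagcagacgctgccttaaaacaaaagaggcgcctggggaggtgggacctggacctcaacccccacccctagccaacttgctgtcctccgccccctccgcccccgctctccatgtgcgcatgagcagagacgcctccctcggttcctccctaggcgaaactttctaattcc
The Lamb1 window held these letters at 239 and 201 bases before the start and the Lama2 window held them at 21 bases, so both a chain that rose and a chain that fell had them. The windows of Itga3 and Itga4 had none. A window was found for 23 of 35 members (26 windows), of which 5 windows (19.2%) held TGGGAA, against 21.6% of 32851 windows of all genes. The AP-1 letters TGANTCA were in 1 member window (3.85%, Itgax) and 6.75% of all windows, and the GC box GGGCGG was in 34.6% and 32.7%. Both were searched on both strands, and none of the 3 motifs can overlap another. The share of member windows with TGGGAA was near that of all windows, and a match to these letters does not show binding.

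Of the 4 listed chains of the hemidesmosome and laminin-332, 2 fell (Itga6 and Lamb3), none rose and 2 did not pass (Itgb4 and Lama3). Itga3, the laminin-332 receptor chain of focal contacts, was grouped with them and rose. In this group of 5, 40% fell and 20% rose, against 10.0% and 9.64% of all tested genes. Itga3, which encodes the alpha3 integrin chain (chromosome 11, 95044474 to 95076801, GRCm38), stood at 118 CPM in WT 1 and 112 CPM in WT 2, against 231, 280.5 and 147 CPM in the knockouts in order of their numbers. Every knockout lay above both wild types, and KO 3 lay nearest to them. The chain rose 1.91-fold (log2 fold change 0.93 ± 0.21 SE, edgeR adjusted p = 0.0145). Itga6, the alpha6 chain of the hemidesmosome (chromosome 2, 71745616 to 71858416), was at 203 and 179 CPM in WT and at 152, 153 and 147 CPM in KO. Its knockout values were close together and all lay below the wild types, a fall of 0.34 ± 0.09 on the log2 scale (edgeR adjusted p = 0.0300).

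Itgb4 encodes the beta4 chain, the partner of alpha6 in the hemidesmosome (chromosome 11, 115974709 to 116008412). It was at 215 and 196 CPM in WT and at 275, 312 and 191 CPM in KO. Both wild types lay below KO 1 and KO 2 and above KO 3, and the gene missed the threshold (log2 fold change 0.34 ± 0.17, edgeR adjusted p = 0.197). Lamb3, the beta3 chain of laminin-332 (chromosome 1, 193207699 to 193343878), was at 178 and 188 CPM in WT and at 137, 144 and 143 CPM in KO, and fell by 0.37 ± 0.09 on the log2 scale (edgeR adjusted p = 0.0173). Lama3, its alpha3 partner, was at 87.5 and 84.8 CPM in WT and at 88.2, 103 and 79.3 CPM in KO, with overlapping groups (log2 fold change 0.06 ± 0.12, edgeR adjusted p = 0.730).

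The summed level of the 5 chains was 802 and 759 CPM in WT and 882, 993 and 708 CPM in KO, so the total overlapped between genotypes, and without Itga3 the mean was 665 CPM in WT and 642 CPM in KO. Calls in the group were lost when any of several libraries was left out. Leaving out any library but KO 3 also cut the calls among all genes. Across the alternatives the log2 fold change ran from 0.70 to 1.14 for Itga3. It ran from -0.45 to -0.25 for Itga6 and from -0.41 to -0.34 for Lamb3. Itga3 lost its call without WT 1 (edgeR adjusted p = 0.117), without WT 2 (0.105) or with robust dispersion (0.0550). Itga6 lost its call without WT 1 (edgeR adjusted p = 0.212), KO 1 (0.0803) or KO 2 (0.0741), and Lamb3 lost it without WT 1 (0.0676), WT 2 (0.0725) or KO 1 (0.0682). Itgb4 passed without KO 3 (log2 fold change 0.50, edgeR adjusted p = 0.00632) and with no filter on low counts (0.0351). The basal keratin Krt14 showed the same order of knockouts as Itga3 and Itgb4, at 86.3, 117 and 31.2 CPM by number, and was at 1.78 and 3.14 CPM in WT. Itga6, which fell, had this order too, as did Lama3, Krt5 and Col17a1, which did not pass. The order is therefore not particular to Krt14, Itga3 and Itgb4.

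**Figure D2:**
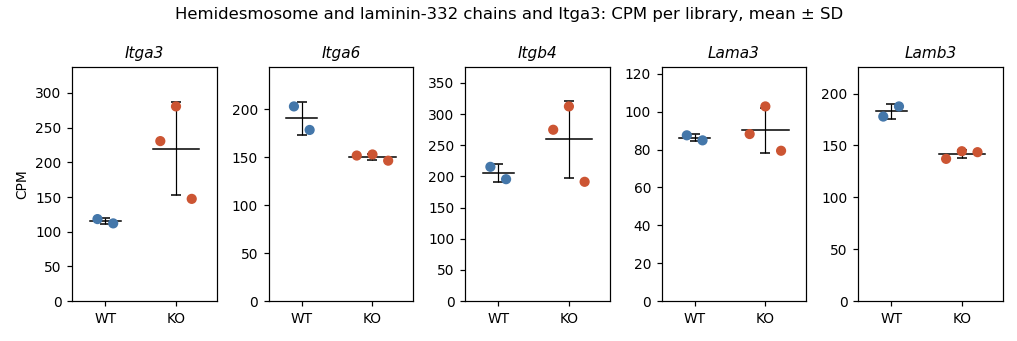
CPM per library on the vertical axis for the 4 hemidesmosome and laminin-332 chains and for Itga3, with genotype on the horizontal axis. Dots are libraries (2 WT, 3 KO), horizontal lines are means and bars are SD. Itga3 lies higher and Itga6 and Lamb3 lie lower in all 3 knockouts, and for Itgb4 and Lama3 the genotypes overlap.

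Ratios of chains within a library do not depend on scaling. The design set 8 pairs, from a list of chains chosen with earlier results of these data known. The log2 ratio of Itga3 to Itga6 counts was -0.78 and -0.67 in WT and 0.60, 0.87 and 0.01 in KO. Every knockout lay above both wild types, with KO 3 nearest to them. The log2 ratio of Itga6 to Itgb4 was -0.08 and -0.13 in WT and -0.86, -1.03 and -0.39 in KO. For Itga3 to Itgb1, its beta partner, it was -1.92 and -2.10 in WT and -0.98, -0.72 and -1.45 in KO. These 3 ratios showed no overlap between genotypes. Among single tested genes 51.0% showed none, and no such share was computed for ratios of other genes. Each of the 3 ratios holds Itga3 or Itga6, which were called singly.

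The log2 ratio of Lama3 to Lamb3 was -1.02 and -1.14 in WT and -0.64, -0.49 and -0.85 in KO, also without overlap. Lama2 to Lama5 was at -2.61 and -2.72 in WT and -3.47, -3.37 and -3.45 in KO, the tightest of the 8 pairs among knockouts after Itga5 to Itgb1. Lamb1 to Lamb2, Itgal to Itgb2 and Itga5 to Itgb1 overlapped, with differences of 0.43, 0.0023 and 0.13. With 2 against 3 libraries, the exact two-sided permutation test cannot go below p = 0.2, the value of each of the 5 ratios without overlap (0.32 adjusted over the 8 ratios), so no ratio could pass. Leaving out any library kept the sign of these 5 differences.

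**Figure D3:**
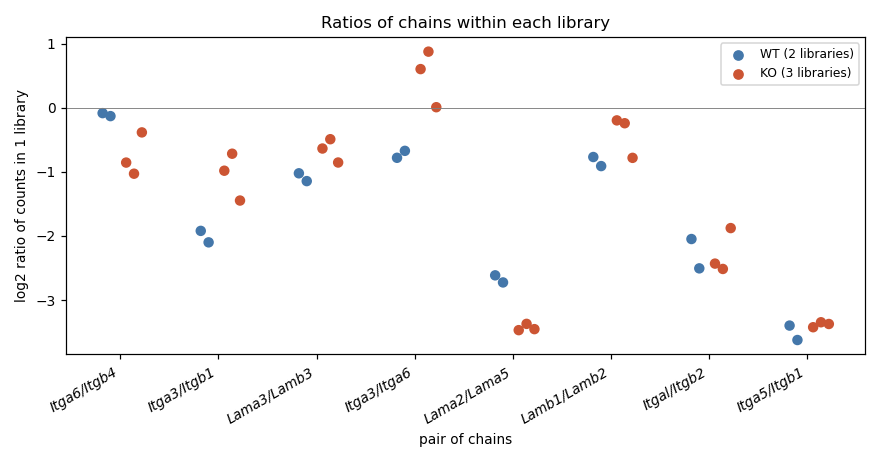
Log2 ratio of counts of 2 chains within a library on the vertical axis for 8 pairs on the horizontal axis, with 1 dot per library (blue WT, orange KO). For Itga3/Itga6 the wild types lie at -0.78 and -0.67 and the knockouts from 0.01 to 0.87, and for Itga5/Itgb1 the genotypes overlap.

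Among 6 epithelial and shared integrin chains, 1 rose, 1 fell and 4 did not pass. Each direction held 16.7% of the group, against 9.64% higher and 10.0% lower among all tested genes. Itgb6 encodes the beta6 chain of an epithelial integrin that activates latent TGF-beta (chromosome 2, 60598292 to 60722643). It was at 44.3 and 40.8 CPM in WT and at 75.9, 74.9 and 47.4 CPM in KO. All knockouts lay above the wild types, KO 3 only just, and the gene rose 1.56-fold (log2 fold change 0.64 ± 0.18, edgeR adjusted p = 0.0340). Itgb8, whose product also activates latent TGF-beta with the alphaV chain (chromosome 12, 119158022 to 119238802), was scarce. It had 41 and 20 counts in WT (2.14 and 1.39 CPM) and 9, 2 and 5 counts in KO (0.339, 0.120 and 0.389 CPM), a 6.17-fold fall (log2 fold change -2.63 ± 0.48, edgeR adjusted p = 0.00511).

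Itgb1, the common beta1 partner, was at 448 and 480 CPM in WT and at 455, 461 and 402 CPM in KO (edgeR adjusted p = 0.643). Its groups overlapped (log2 fold change -0.08 ± 0.11 SE). Itgav, Itgb5 and Itga2, which encode the alphaV, beta5 and collagen-binding alpha2 chains, had log2 fold changes of 0.11, -0.02 and -0.11 with overlapping groups. The call of Itgb6 was lost without WT 1 (edgeR adjusted p = 0.162), WT 2 (0.176), KO 1 (0.101) or KO 2 (0.0953) and with robust dispersion (0.0508), and that of Itgb8 without WT 1 (0.117). Itgb6 kept its positive sign in 14 alternatives and Itgb8 its negative sign in the 13 that measured it.

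Of the 9 stromal, vascular, muscle and platelet integrin chains, 3 fell (33.3%, against 10.0% of all tested genes), none rose and 6 did not pass. Their wild-type means ran from 2.35 CPM (Itga8) to 50.3 CPM (Itga11). Itga1, a collagen receptor chain of stroma and smooth muscle (chromosome 13, 114953096 to 115101964), was at 16.5 and 15.9 CPM in WT and at 7.30, 6.74 and 8.18 CPM in KO. The groups were far apart for their spread, and the gene fell 2.19-fold (log2 fold change -1.13 ± 0.15, edgeR adjusted p = 0.000962). Itga9, a receptor chain for tenascin-C (chromosome 9, 118606690 to 118901003), was at 17.2 and 14.5 CPM in WT and at 6.93, 9.32 and 8.95 CPM in KO, and fell 1.91-fold (edgeR adjusted p = 0.00524). Itga11, a fibroblast receptor chain for fibrillar collagen (chromosome 9, 62677826 to 62783982), was at 53.9 and 46.7 CPM in WT and at 21.98, 19.6 and 38.9 CPM in KO, with KO 3 nearest to the wild types. It fell 1.899-fold (log2 fold change -0.93 ± 0.24, edgeR adjusted p = 0.0221).

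Of the other 6, Itga10, a collagen receptor chain of cartilage, was at 9.51 and 9.20 CPM in WT and at 7.57, 7.34 and 6.62 CPM in KO, without overlap but not past the test (log2 fold change -0.38, edgeR adjusted p = 0.129). The muscle laminin receptor chain Itga7, Itga8, the fibronectin receptor chain Itga5, the platelet chain Itga2b and its partner Itgb3 had log2 fold changes from -0.33 (Itga8) to 0.05 (Itga5), all with overlap. Itga5 was at 42.5 and 39.0 CPM in WT and at 42.5, 45.4 and 38.8 CPM in KO. The summed level of the group was 164 and 147 CPM in WT and 106, 109 and 122 CPM in KO, and without Itga11 it was 110 and 99.9 CPM and 83.6, 88.9 and 83.0 CPM. The group median was -0.33, in the same libraries in which the fibroblast and endothelial marker lists had medians of -0.81 and -0.41. The call of Itga11 was lost without WT 1 (edgeR adjusted p = 0.184), WT 2 (0.0794) or KO 1 (0.0681), in DESeq2 (adjusted p = 0.0978) or with robust dispersion (edgeR adjusted p = 0.0730), and Itga9 lost it without WT 1 (0.0891).

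Leukocyte integrin chains divided by gene: 2 of 7 fell (28.6%, against 10.0% of all tested genes), 5 were not past the test and none rose. Their median log2 fold change was -0.65. Itga4 encodes the alpha4 chain, the receptor for VCAM-1 and fibronectin on lymphocytes, monocytes and some mesenchymal cells (chromosome 2, 79255426 to 79333123). It was at 34.7 and 32.1 CPM in WT and at 8.24, 8.18 and 11.9 CPM in KO, a gap many times the spread within either group. The fall was 3.59-fold (log2 fold change -1.84 ± 0.17, edgeR adjusted p = 0.000103). Of its exon bases, 8.04% lie in exons of Cerkl on the opposite strand, and whether the counting used strand is not stated. Itgax, the CD11c chain of dendritic cells and macrophages (chromosome 7, 128129547 to 128150657), had 105 and 62 counts in WT (5.48 and 4.32 CPM) and 16, 6 and 33 in KO (0.602, 0.361 and 2.57 CPM). It fell 4.62-fold (log2 fold change -2.21 ± 0.56, edgeR adjusted p = 0.0221), and KO 3 was the highest of the knockouts.

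The shared beta2 chain Itgb2, which pairs with CD11a, CD11b and CD11c on all leukocyte classes, was at 13.7 and 14.01 CPM in WT and at 9.82, 12.5 and 15.3 CPM in KO, with overlap (log2 fold change -0.16 ± 0.18, edgeR adjusted p = 0.573). Itgam, the CD11b chain of myeloid cells, was at 12.2 and 10.3 CPM in WT and at 11.6, 16.0 and 12.4 CPM in KO (log2 fold change 0.23, edgeR adjusted p = 0.382). Of the Itgam exon bases, 68.7% are shared with the gene model Gm49368 on the same strand, so its count is uncertain. Itgal, the CD11a chain, was at 3.29 and 2.44 CPM in WT and at 1.81, 2.17 and 4.13 CPM in KO (log2 fold change -0.15). Itgae, the CD103 chain of epithelial T cells, had 22 and 21 counts in WT and 15, 0 and 28 in KO, and missed the threshold (edgeR adjusted p = 0.632). Itgb7, the partner of Itgae and Itga4, was at 6.63 and 8.09 CPM in WT and at 3.61, 3.91 and 5.84 CPM in KO, without overlap but not past the test (log2 fold change -0.75 ± 0.24, edgeR adjusted p = 0.0554).

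KO 3 held the highest knockout value of 6 of these 7 chains, all but Itgam, and of the pan-leukocyte gene Ptprc, which was at 12.6 and 12.7 CPM in WT and at 4.03, 4.99 and 11.7 CPM in KO (log2 fold change -0.93, edgeR adjusted p = 0.0924). Of the 11 leukocyte markers tested, 8 had a negative log2 fold change, and the list's median was -0.27. Some broad markers lay nearer to 0 than Ptprc, with overlapping groups. Their log2 fold changes were -0.19 for Laptm5, -0.27 for Coro1a, -0.08 for the macrophage receptor gene Csf1r and 0.06 for Cd68. Cd52 was at -0.70, also with overlap. For the macrophage gene Adgre1 (-0.68) and for Cd4 (-1.36) every knockout lay below the wild types. Neither passed (edgeR adjusted p = 0.0739 and 0.0516). The summed level of the 7 integrin chains was 77.2 and 72.7 CPM in WT and 36.2, 43.1 and 54.3 CPM in KO. Without Itga4 it was 42.5 and 40.6 CPM in WT and 28.0, 34.9 and 42.4 CPM in KO, and the genotypes overlapped. Without KO 3, 4 chains of the group fell, among them Itgb7 (edgeR adjusted p = 0.00394) and Itgae (0.0418). Genes lower in all also rose in number there, to 2246 from 1483 in the full set. The call of Itgax was lost without WT 1 (edgeR adjusted p = 0.197), WT 2 (0.0909) or KO 1 (0.0695), and Itgb7 passed in 7 of 14 alternatives.

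**Figure D4:**
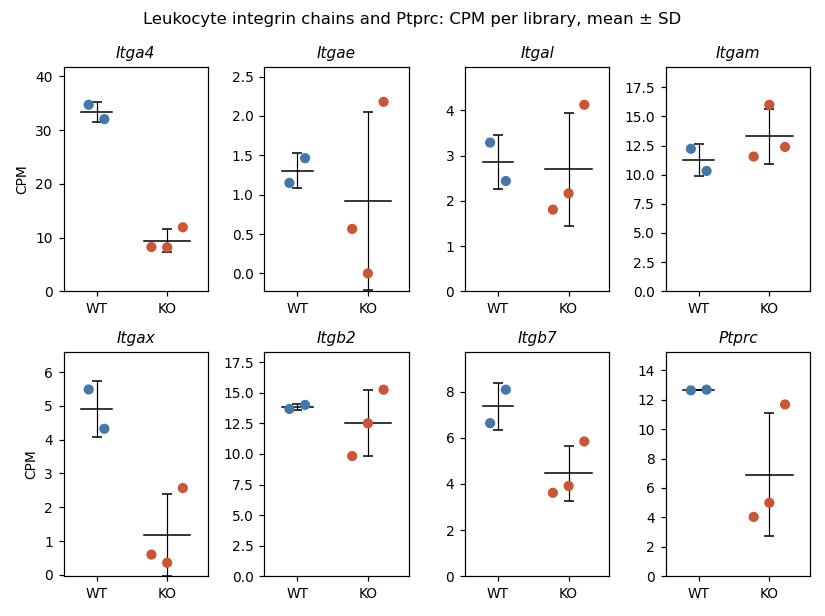
CPM per library on the vertical axis for 7 leukocyte integrin chains and the pan-leukocyte gene Ptprc, by genotype on the horizontal axis. Dots are libraries, lines are means and bars are SD over 2 WT and 3 KO libraries. Itga4 is at 34.7 and 32.1 CPM in WT against 8.18 to 11.9 CPM in KO, whereas the knockouts of Itgb2 span the wild-type values.

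Other laminin chains held the member with the largest rise. Of 8, 2 rose (25%, against 9.64% of all tested genes), 3 fell (37.5%, against 10.0%) and 3 did not pass. Lama1, the alpha1 chain of embryonic and some adult epithelial basement membranes (chromosome 17, 67697259 to 67822647), was at 6.53 and 6.06 CPM in WT and at 20.03, 24.96 and 23.2 CPM in KO. Both groups were tight, and the gene rose 3.59-fold (log2 fold change 1.84 ± 0.16, edgeR adjusted p = 7.48e-05). Lamb1, a beta chain found with alpha1 in laminin-111 (chromosome 12, 31265234 to 31329644), was at 135 and 117 CPM in WT and at 182, 204 and 145 CPM in KO, and rose 1.41-fold (log2 fold change 0.50 ± 0.14, edgeR adjusted p = 0.0336). The gamma1 chain of the same trimer, Lamc1 (chromosome 1, 153218922 to 153332786), was at 308 and 252 CPM in WT and at 173, 220 and 222 CPM in KO, and fell by 0.45 ± 0.13 on the log2 scale (edgeR adjusted p = 0.0404). Thus 2 chains of laminin-111 rose and the third, which most laminins share, fell.

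Lama2, the alpha2 chain of muscle and stromal laminin (chromosome 10, 26980036 to 27619758), was at 116 and 93.1 CPM in WT and at 47.0, 60.1 and 48.8 CPM in KO. It fell 2.02-fold (log2 fold change -1.01 ± 0.13, edgeR adjusted p = 0.000908). Lamc3, the gamma3 chain (chromosome 2, 31887291 to 31946539), was at 18.8 and 18.2 CPM in WT and at 8.81, 12.6 and 11.6 CPM in KO, and fell 1.70-fold (edgeR adjusted p = 0.0112). Lama4, the alpha4 chain of vessel walls, was at 88.01 and 66.4 CPM in WT and at 47.8, 55.6 and 66.4 CPM in KO, where KO 3 and WT 2 were almost level, and missed the threshold (log2 fold change -0.46 ± 0.15, edgeR adjusted p = 0.0614).

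Lama5, the main alpha chain of adult epithelial and vessel basement membranes, was at 712 and 615 CPM in WT and at 520, 622 and 535 CPM in KO (log2 fold change -0.25 ± 0.12, edgeR adjusted p = 0.174). Lamb2, which replaces beta1 in many adult laminins, was at 230 and 219 CPM in WT and at 209, 242 and 250 CPM in KO (log2 fold change 0.06 ± 0.11, edgeR adjusted p = 0.746). The call of Lamb1 was lost without WT 1 (edgeR adjusted p = 0.109), WT 2 (0.199), KO 1 (0.0848) or KO 2 (0.113) and with a filter at 5 CPM (0.0505). That of Lamc1 was lost without WT 1 (0.313), KO 1 (0.118) or KO 2 (0.0586), and that of Lamc3 without WT 1 (0.106) or WT 2 (0.0604). Lama4 passed without KO 3 (edgeR adjusted p = 0.00563) and in 4 other alternatives.

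**Figure D5:**
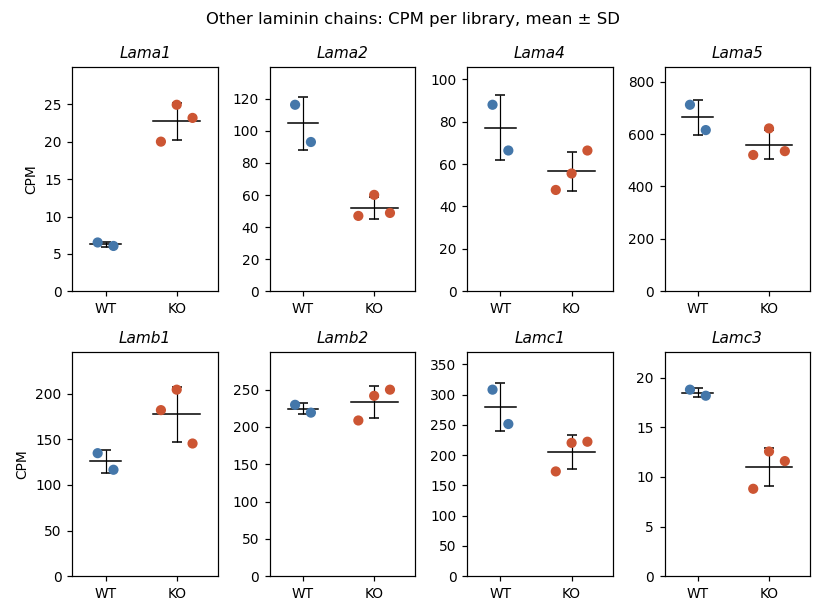
CPM per library on the vertical axis for 8 laminin chains outside laminin-332, by genotype on the horizontal axis. Dots are libraries, lines are means and bars are SD over 2 WT and 3 KO libraries. Lama1 is at 6.06 and 6.53 CPM in WT against 20.03 to 24.96 CPM in KO, and Lama2 shows the opposite order with 93.1 and 116 against 47.0 to 60.1 CPM.

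Levels of different chains were compared per length, as CPM per kilobase of exon in the GENCODE vM21 annotation. In the wild types Itgb1 led with 114 ± 5.65 (SD, n = 2), followed by Lama5 with 58.3 ± 6.00, Itgb5 with 41.3 ± 1.19, Lamb2 with 36.9 ± 1.22, Lamc1 with 33.8 ± 4.86, Itgb4 with 29.3 ± 2.00 and Lamb3 with 27.6 ± 1.046. From Lamb2 to Lamb3, each chain differed from the next by less than the larger SD of the pair. Next came Itga6 with 21.1 ± 1.92 and Itga3 with 20.2 ± 0.766, which did not differ beyond their spread. In the knockouts Itga3 was at 38.4 ± 11.8 (SD, n = 3) per kilobase and Itga6 at 16.7 ± 0.384.

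The rise of Lama1 was from a low level: 0.650 ± 0.0339 per kilobase in WT and 2.35 ± 0.258 in KO, against 49.1 ± 4.82 for Lama5 in KO. Lama5 was the highest laminin alpha chain in both genotypes. Lama3 was at 8.02 and 8.38 per kilobase, Lama2 at 6.41 and 3.18 and Lama4 at 6.40 and 4.69 in WT and KO, so Lama2 and Lama4 were level in the wild types. Among leukocyte chains, in the same order, Itgb2 was at 4.54 and 4.11, Itga4 at 2.39 and 0.676 and Itgax at 1.02 and 0.245. The lowest chain was Itgb8, at 0.160 per kilobase in WT and 0.0256 in KO.

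Partners of the chains were described from lists of 4 kinds. Of 6 hemidesmosome plaque and anchor genes, only Krt14 passed (16.7%, against 19.7% of all tested genes), and it was higher (log2 fold change 5.04 ± 0.57, edgeR adjusted p = 0.000469). Dst and Col17a1, which encode the plaque protein BPAG1 and the transmembrane collagen of hemidesmosomes, and Krt5 were not past the test, at log2 fold changes of -0.24, 0.09 and 0.32. Without KO 3, 2 of the 6 passed, and 27% of all tested genes were called. Of 15 basement membrane partners 5 fell (33.3%, against 10.0% of all tested genes), none rose and 10 did not pass. The nidogen gene Nid1, whose product links laminin to type IV collagen, was at 108 and 86.2 CPM in WT and at 49.5, 58.9 and 52.5 CPM in KO (edgeR adjusted p = 0.00134). The type IV collagen genes Col4a5 and Col4a3 and the perlecan gene Hspg2 fell 1.46-fold, 2.77-fold and 2.07-fold. Col4a3 was scarce, with 69 and 51 counts in WT and 32, 17 and 22 in KO. Col4a1, Col4a2 and Col4a4 did not pass (edgeR adjusted p = 0.181, 0.0775 and 0.207). Of the 15 partners, 66.7% showed no overlap, against 51.0% of all tested genes. The knockouts lay below for 7 and above for 3 (Agrn, Dag1 and Frem2, none past the test). Without KO 3, 1 of the 15 rose, and genes higher in all numbered 1743, against 1424 in the full set. Col4a5, Hspg2 and Col4a3 lost their calls without WT 1, and Col4a3 also without WT 2. Each of these settings leaves 1 wild type and cut the calls among all genes as well. Across the alternatives the log2 fold change ran from -0.71 to -0.40 for Col4a5. It ran from -1.31 to -0.76 for Hspg2 and from -1.68 to -1.35 for Col4a3.

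Integrin ligands outside the basement membrane changed in both directions, with 7 lower, 2 higher and 5 of 14 tested not past the test. The share called was 64.3%, against 19.7% of all tested genes. The collagen genes Col1a1, Col1a2 and Col3a1 are among the 7 and are also on the fibroblast marker list. This share therefore partly repeats the fall of those markers. The fibronectin gene Fn1, a ligand of Itga5 and Itga4 products, was at 420 and 330 CPM in WT and at 150, 175 and 201 CPM in KO (log2 fold change -1.10, edgeR adjusted p = 0.000841). The tenascin-C gene Tnc, a ligand of the Itga9 product, was at 196 and 238 CPM in WT and at 93.2, 84.6 and 126 CPM in KO (edgeR adjusted p = 0.00140). Icam1, the ligand of beta2 integrins, rose 2.52-fold, from 29.4 and 29.8 CPM to 82.5, 84.6 and 55.4 CPM (edgeR adjusted p = 0.000863). The thrombospondin gene Thbs1 rose 2.87-fold. Without WT 1, which leaves 1 wild type, fewer of these ligands were called lower, and fewer genes were called in all.

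Among 23 integrin adaptor and signalling genes, 1 rose, 2 fell and 20 did not pass, a share called of 13.0% against 19.7% of all tested genes. The adaptor gene Bcar1, whose product is a scaffold at focal adhesions, rose 1.47-fold (edgeR adjusted p = 0.00389), and the tensin genes Tns3 and Tns1, which link integrin tails to actin, fell by 0.47 and 0.45 on the log2 scale. Fermt3, the kindlin of blood cells, had a log2 fold change of -0.45 and missed the threshold (edgeR adjusted p = 0.0719). Bcar1, Tns3 and Tns1 lost their calls without WT 1, a setting that leaves 1 wild type and cut the calls among all genes as well. Across the alternatives the log2 fold change ran from 0.49 to 0.60 for Bcar1. It ran from -0.62 to -0.33 for Tns3 and from -0.64 to -0.26 for Tns1. Without KO 1, Tns3 (edgeR adjusted p = 0.0589) and Tns1 (0.127) did not pass, and 12% of all tested genes were called. Fermt3 passed without KO 3 (edgeR adjusted p = 0.0188).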

How the data were processed

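RNA was measured in 5 libraries, 2 WT and 3 KO, grouped by the titles in the labels. The deposited values were raw gene counts, 1 table per library. Per the labels, TRI-Reagent extracts of the ground, frozen lining went into Illumina TruSeq libraries. The tools HTSeq 0.11.1, HISAT2 2.1.0 and DESeq2 and the build mm10 are named, per the submitters' processing notes. Not given in the sources used here were annotation and strand setting. The 5 summary rows of the counting program stayed out of library sizes and tests, and genes held 49.3% to 60.6% of all tallied reads. Replicates are separate mice per the series design, and within each group they differed by more than sampling noise. Exons of another gene overlap 33.5% of the exon bases of Itga10 (same strand), 7.66% of Itgb4, 6.27% of Lamc3, 5.9% of Itgav, 5.05% of Itga8, 3.86% of Lama2, 1.83% of Lama3 and 0.111% of Itga7 (opposite strand) and 3.68% of Itga1 (same strand), so these counts are less certain.

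Genes were filtered with filterByExpr (minimum count 10, total 15) and scaled with TMM, and CPM uses those factors. SE is the absolute log2 fold change over the square root of the quasi-likelihood F. Software was edgeR 4.0.16, DESeq2 1.42.0 and limma 3.58.1 under R 4.3.3. Ratios used counts plus 0.5. On simulated data of 14604 genes for this comparison the test found 50% of genes changed 1.5-fold and 78% of those changed 2-fold. It found 98% of those changed 4-fold or 8-fold, and 11.5% of its calls were false. Only 50 genes per fold were changed there, and 183 genes were called, against 2907 in the data. The adjusted threshold was thus stricter on p in the simulation, so these shares do not carry over directly to the data. Positions come from GENCODE vM21 (GRCm38, as mm10).

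Members, role groups, partner and marker lists were chosen with earlier results of these data known. Every member was described. Members past the threshold, the hemidesmosome group and the chains of the ratio pairs have a value per library, and of each partner list up to 4 genes with the smallest p were named. Others named, such as Ptprc and S100a8, were chosen after their values were seen. Alternatives were RLE and upper-quartile scaling, other filters, DESeq2, limma-voom, a robust fit, a replicate block, removal of ribosomal and nuclear RNA rows, and removal of each library. Sums without their leading chain were added after the data were seen.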

Additional observations from a re-analysis of the deposited data

How the results depend on the processing

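No member called in the full set changed sign under any alternative. Members higher and lower numbered 4 and 11. RLE scaling, DESeq2 and leaving out ribosomal and nuclear RNA rows gave the same counts, while a robust fit gave 2 and 11. Leaving out a library gave 1 to 5 higher and 3 to 14 lower members, and 340 to 1743 higher and 375 to 2246 lower genes in all. With the replicate number as a replicate block, 5 members were higher and 14 lower, and 2211 and 2426 genes in all against 1424 and 1483. No wild type has the number 3, so the block fits KO 3 alone and this contrast rests on replicates 1 and 2. The setting is therefore close to leaving out KO 3, which also gave 5 and 14 members. The labels do not say that a number marks a shared litter or day. Deviations of same-numbered libraries correlated at -0.0553 (replicate 1) and 0.0516 (replicate 2). With 2 wild types, their deviations from the mean mirror each other, so these values are not separate checks and cannot decide on a pairing. Since the labels name none, the block was not taken as a pairing. Summed log2 ratios moved from -0.75 to -0.24 for leukocyte chains without Itga4, from -0.47 to -0.30 for stromal chains without Itga11, and from 0.14 to -0.05 for the hemidesmosome group without Itga3. With 2 against 3 mice, changes of 1.5-fold were often missed in simulation. Fewer genes changed there than were called in the data, so the share missed in the data is not known. Chains under 2 CPM such as Itgae and Itgb8 rest on few counts.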
